A study of Homo sapiens with 2 samples.

Results

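The chromatin modifiers, remodellers and HMG (high mobility group) proteins described here are 142 of the 13763 genes named on the arrays. They were chosen by symbol alone: every gene whose name begins with KMT, KDM, HDAC, SIRT, SETD, PRDM, BRD, CHD, SMARC, ARID, HMGA, HMGB, HMGN, DNMT, TET, KAT, CBX, EZH, PHF or ING followed by a digit (or SMARC followed by a letter), antisense symbols left out. Their transcripts were read with Affymetrix whole-transcript arrays in S2-013, an established line of human pancreatic cancer cells. One culture carried a knockdown of HOXB7, a plasmid that restores HOXB7, and a MEK inhibitor. The other carried the same knockdown and the same plasmid without the inhibitor. There was 1 array for each, so no replicate spread exists, no test was possible and every difference below compares these 2 arrays. Which inhibitor was used, at what dose and for how long is not given in the sources used here, and neither parental cells nor cells with the knockdown alone were analysed here. The series' stated aim was to find factors under the control of signalling from HOXB7 through MEK.

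MEK phosphorylates ERK, a kinase whose output reaches the nucleus through transcription factors of the ETS, AP-1 and EGR families. Chromatin proteins act beside such factors. Histone methyltransferases, acetyltransferases and their opposing demethylases and deacetylases set marks on histone tails, proteins with bromodomains, chromodomains or PHD fingers bind those marks, and remodellers use ATP to move nucleosomes. HMGA proteins bind the minor groove of AT-rich DNA through AT-hooks and bend it, HMGN proteins bind the nucleosome itself, and HMGB proteins bend DNA through HMG boxes. HMGA1 and HMGA2 are embryonic genes that many carcinomas express again, pancreatic ones included.

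Values are log2 signals of 1 probe set per gene, the one with the highest mean of both arrays, and a difference is the inhibitor array minus the array without inhibitor. A gene counted as measured when at least 1 of its values reached a floor of 4.78, which is the median, taken over all genes, of the 2-array mean. Of the 142 members, 104 reached it, 97 of them in both arrays, 5 only without the inhibitor and 2 only with it. The other 38 had both values under it. Probe sets that read the same gene disagreed in their differences by a median of 0.16, and 95% of the 443 such pairs disagreed by up to 0.80, which is the only error that these arrays can show. It covers probe error and not the variation between cultures. The 443 pairs came from only 145 genes, so genes with more probe sets weigh more, and 45 genes that had probe sets with identical values were left out. Genes with several nearly equal probe sets, PHF1 among them, were kept and may make the disagreement look smaller than it is. In a culture, fewer expressing cells and less RNA per cell cannot be told apart.

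HOXB7 read 5.85 with the inhibitor and 5.84 without it. All 12 measured genes of a list of ERK output were lower with the inhibitor, with a median difference of -1.40. That list was chosen with earlier results of these data known. In it, 9 genes were lower by at least 2-fold. Among those 9, SPRY2 (4.72), SPRY4 (4.77), ETV1 (3.32), ETV4 (4.55) and ETV5 (4.06) read below the floor with the inhibitor. They counted as measured only through the array without it, so their folds end in dim signals. EGR1, an early growth response factor, read 5.19 with the inhibitor and 8.13 without it, and DUSP6, an ERK phosphatase, 5.27 with and 6.53 without it. The epithelial markers EPCAM (10.5 in both conditions) and KRT19 (8.87 with and 8.94 without the inhibitor) were well above the floor. All 8 named epithelial markers reached it, 4 of them higher and 4 lower with the inhibitor, among them the tight junction gene CLDN4 at 0.95 and the ductal transcription factor gene SOX9 at -1.24. Of 16 named markers of fibroblasts, leukocytes, endothelium, acinar and endocrine cells, 6 reached it, among them CD68 and DES, and the fibroblast markers DCN and LUM read 2.49 or less.

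Most chromatin genes read nearly the same in both conditions, and the few larger differences lay in the HMG proteins, a PRDM factor, a deacetylase and a chromobox protein. Among the 104 members above the floor, 49 were higher and 55 lower with the inhibitor, and the median difference was -0.02, against 0.03 over the 7164 genes above the floor, of which 53.9% were higher and 46.1% lower. The interquartile range of the members lay between -0.16 and 0.16, and that of all genes between -0.15 and 0.22. Differences smaller than 0.3 either way were read for 77 members (74.0%) and for 69.1% of all genes. At 2-fold, 1 member was past the threshold (0.962%), against 1.68% of all genes. That member was lower, as were 1.05% of all genes, while no member and 0.628% of all genes were higher by 2-fold. At 1.5-fold there were 6 members (5.77%), against 8.22% of all genes. Of these, 3 members were higher, against 4.62% of all genes, and 3 were lower, against 3.6%. The members' shares were below those of genes at large at both thresholds, and nothing is read from their number.

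**Figure D1:**
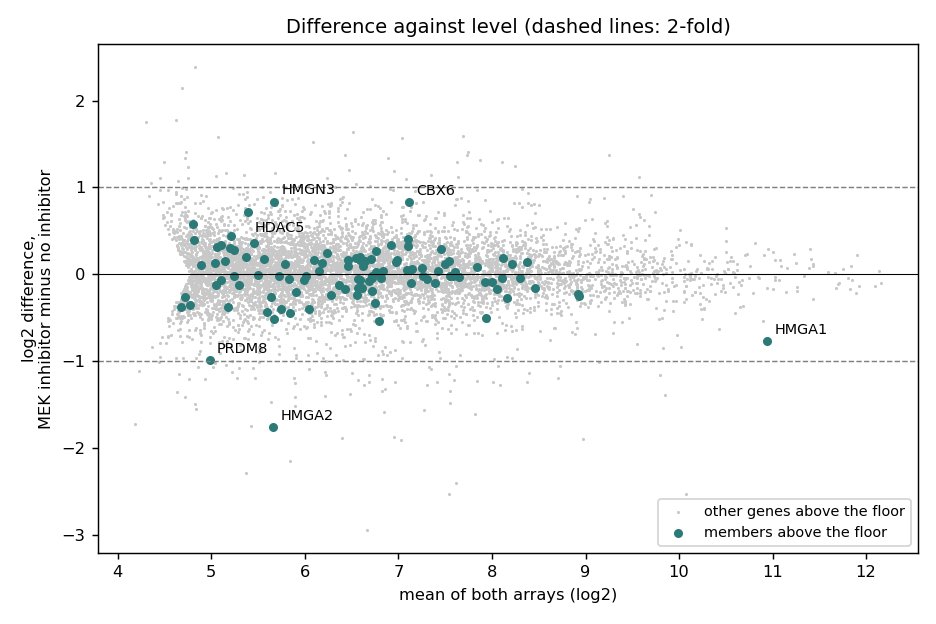
Each point is a gene above the floor, with the mean of both arrays on the x axis and the log2 difference, inhibitor minus no inhibitor, on the y axis; members are dark, other genes grey, and the dashed lines mark 2-fold. Most members lie within 0.3 of 0, HMGA2 is the one member past 2-fold, and HMGA1 lies below nearly all genes of its brightness.

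Both measured HMGA genes were lower with the inhibitor by more than 1.5-fold, and of the 3 measured HMGN genes 1, HMGN3, was higher by more than 1.5-fold. HMGA2 read 4.78 with the inhibitor and 6.54 without it, giving a difference of -1.76, or 3.39-fold lower. Only 10 of the 7164 genes above the floor had a lower difference, which made HMGA2 rank 11 from the bottom. Its value with the inhibitor lay just under the floor, so the fold ends in a dim signal. HMGA1 read 10.6 with the inhibitor and 11.3 without it, giving a difference of -0.77, or 1.71-fold lower. The second HMGA1 probe set gave 9.05 with the inhibitor and 9.66 without it, giving a difference of -0.61, so both HMGA1 probe sets were lower by similar amounts. Of the 146 genes with a mean of at least 10, 2 had a lower difference than HMGA1, namely MMP1 (-2.53) and ACSL5 (-0.83). That level was chosen after the HMGA1 value was seen.

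HMGN3, a nucleosome-binding protein, read 6.09 with the inhibitor and 5.25 without it, giving a difference of 0.84, or 1.79-fold higher. It was the highest of the members, at rank 96 from the top among all genes above the floor. HMGN4 read 7.31 with the inhibitor and 6.90 without it (0.41), and HMGN1 read 5.22 with and 4.91 without it (0.32). The values of HMGN1 and HMGN4 were short of 1.5-fold and inside the 0.80 within which 95% of same-gene probe set pairs stay. HMGN3 and HMGA1 were close to that limit, and HMGA2 was beyond it. Below the floor in both arrays, HMGN2 had a difference of 0.64 (4.24 with and 3.60 without the inhibitor) and HMGN5 one of 0.08. HMGN genes have many processed copies in the genome, so probe sets may share signal with near-identical copies, and these values are uncertain for that reason. The HMGB genes, whose products bend DNA without sequence preference, hardly differed: HMGB2 read 6.54 with the inhibitor and 6.59 without it, and HMGB1 5.06 with and 5.13 without it. The HMGB1 values lay close to the floor, where a difference may be missed. HMGB3 and HMGB4 stayed below the floor, as did the copies HMGA1P7, HMGB3P1 and HMGN2P46.

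**Figure D2:**
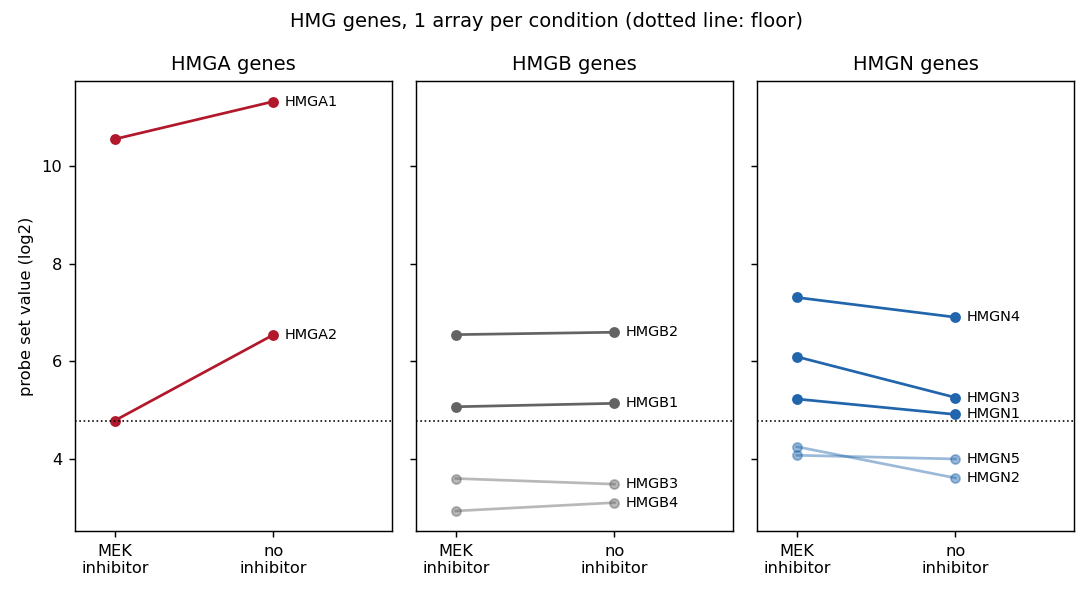
Log2 probe set values of the HMGA, HMGB and HMGN genes on the array with MEK inhibitor (left of each panel) and the array without it (right), 1 line per gene, with the floor dotted and genes below it in both arrays drawn pale; the named copies of HMG genes are not drawn. Lines of both HMGA genes are lower with the inhibitor, those of HMGB1 and HMGB2 are nearly flat, and those of HMGN1, HMGN3 and HMGN4 are higher with it.

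A probe set of a gene that overlaps HMGA2 was also read. RPSAP52, a transcribed pseudogene whose annotated span overlaps the start of HMGA2, read 4.33 with the inhibitor and 5.54 without it, giving a difference of -1.21. Like HMGA2 it was below the floor with the inhibitor and counted as measured only through the array without it, so the size of that difference ends in a dim signal. The annotation used here does not say whether its probe set reads only that transcript, so signal shared with HMGA2 was not tested. The next named gene on the other side, TMBIM4, had a difference of 0.33, and IRAK3 beyond it one of 0.07. HMGA2 messenger RNA is a known target of the let-7 microRNAs. The 10 let-7 hairpin probe sets had differences between -0.56 and 0.26, and whole-transcript probe sets on hairpins do not measure the mature microRNA. Of these 10, only MIRLET7A3 and MIRLET7D reached the floor in either array. LIN28B, which blocks let-7 processing, was below the floor in both arrays (2.39 with and 2.29 without the inhibitor). IGF2BP2, an RNA-binding protein whose gene HMGA2 is known to activate in mouse muscle, read 8.50 with the inhibitor and 8.97 without it (-0.47). The other measured genes in the list of HMGA2 and let-7 partners, IGF2BP3 (0.06) and DIS3L2 (0.20), were slightly higher with the inhibitor.

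Of the 6 members past 1.5-fold, HMGA1, HMGN3, CBX6 and PRDM8 have an entry in the RefSeq promoter table (build GRCh38.p14). The 250 bases before the start site are shown for HMGA1, the lower HMGA gene with an entry, and for HMGN3 and CBX6, the members with the highest differences. Capitals mark matches on either strand to EGR (GCGNGGGCG), E-box (CACGTG) or GC box (GGGCGG) letters, which can overlap each other. For HMGA1 the window is chr6:34236623-34236872 on the plus strand, the first of its 2 listed start sites. The HMGN3 window is chr6:79234683-79234932 and the CBX6 window chr22:38872217-38872466, both on the minus strand. All are written 5′ to 3′ along the gene.
HMGA1: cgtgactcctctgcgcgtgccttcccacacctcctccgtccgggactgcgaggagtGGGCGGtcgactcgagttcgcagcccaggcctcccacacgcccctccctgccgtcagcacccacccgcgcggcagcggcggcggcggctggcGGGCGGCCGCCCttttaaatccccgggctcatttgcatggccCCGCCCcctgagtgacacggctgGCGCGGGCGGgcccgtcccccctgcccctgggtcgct
HMGN3: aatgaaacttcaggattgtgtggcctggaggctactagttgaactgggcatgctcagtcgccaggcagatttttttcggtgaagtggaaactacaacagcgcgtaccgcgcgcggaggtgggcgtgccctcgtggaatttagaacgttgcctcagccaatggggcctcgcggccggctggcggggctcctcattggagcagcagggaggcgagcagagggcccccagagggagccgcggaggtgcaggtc
CBX6: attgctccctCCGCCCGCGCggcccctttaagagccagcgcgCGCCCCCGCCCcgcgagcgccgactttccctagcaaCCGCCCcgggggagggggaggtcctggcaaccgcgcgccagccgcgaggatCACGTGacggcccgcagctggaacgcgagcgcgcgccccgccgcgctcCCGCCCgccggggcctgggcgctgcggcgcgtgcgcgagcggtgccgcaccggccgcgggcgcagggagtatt

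The HMGA1 window held 1 EGR match, which begins 37 bases before the start site, and 5 GC boxes. One of those GC boxes overlaps the EGR match. In the CBX6 window there were 2 EGR matches, 1 E-box and 4 GC boxes, of which 2 overlap an EGR match. The HMGN3 window held none of these, and none of the 3 windows held AP-1 (TGANTCA), CRE (TGACGTCA) or ETS (CCGGAAGT) letters. The window of the second HMGA1 start site, at 51.2% GC, and the PRDM8 windows are not shown and held no match to any of these motifs. The 3 windows shown were GC-rich, at 74.8% for HMGA1, 62% for HMGN3 and 79.2% for CBX6. EGR letters stood in 8.41% of all 35116 windows of this length and in 19.2% of the 146 windows of the 91 members above the floor that have an entry. GC boxes stood in 42.6% of all windows and 61.6% of the members' windows. The members' windows had a median GC content of 68.2%, against 58% over all windows, and both motifs are made of G and C. AP-1 letters stood in 2.74% of the members' windows and 6.57% of all windows, E-box letters in 11% and 6.34%, ETS letters in 3.42% of both, and CRE letters in 0.685% and 1.65%. These matches are letters in a window and no measure of binding.

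The chromobox proteins had a median of 0.22 over 6 measured genes, 5 of them higher with the inhibitor. CBX6, a Polycomb protein that reads trimethylated lysine 27 of histone H3, read 7.53 with the inhibitor and 6.70 without it, giving a difference of 0.83, or 1.78-fold higher. Its second, dimmer probe set (4.59 with and 4.42 without the inhibitor, below the floor) had a difference of 0.17, and the mean over both was 0.50, under 1.5-fold. CBX7, its paralogue, read 5.43 with the inhibitor and 4.99 without it (0.44). CBX2, the third Polycomb CBX gene measured, had a difference of 0.11. CBX7 and the growth factor gene PDGFB are the named genes that follow CBX6 on chromosome 22, and PDGFB also read higher with the inhibitor (6.19, against 5.77 without it).
Among the HP1 proteins, which bind methylated lysine 9 of histone H3, CBX5 had a difference of 0.29, CBX1 of 0.15 and CBX3 of -0.09.

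Lysine methyltransferases are grouped here by KMT, SETD, PRDM or EZH symbols, whatever the known activity of each. Their median was -0.12 over 19 measured genes, 12 of them lower with the inhibitor. Of these, PRDM8, PRDM15 and PRDM16-DT, reached the floor only without the inhibitor, and over the 16 genes that reached it in both arrays the median was -0.03, with 9 lower. PRDM8, a PR-domain zinc finger protein known as a repressor in mouse neurons, read 4.49 with the inhibitor and 5.47 without it, giving a difference of -0.99, or 1.98-fold lower. It stood just short of 2-fold and passed it when the median difference (-1.01) or a loess trend (-1.03) was subtracted. Like HMGA2, PRDM8 was below the floor with the inhibitor. Its neighbour ANTXR2, an anthrax toxin receptor gene, read 6.55 with the inhibitor and 7.52 without it (-0.96), while FGF5 on the other side stayed under the floor. Of the other PRDM genes, PRDM15 (-0.35) and PRDM10 (-0.24) were lower and PRDM4 (0.15) was higher. The symbol PRDM16-DT (-0.37) belongs to a divergent non-coding transcript and not to an enzyme. Without it the median of the group was -0.08 over 18 genes, 11 of them lower. A further 8 PRDM symbols were below the floor.
The monomethyltransferase SETD7 read 5.85 with the inhibitor and 6.25 without it (-0.40), and SETD6, which methylates the NF-kappaB subunit RELA, 4.99 with and 5.37 without it (-0.37). The large KMT2 enzymes that methylate lysine 4 of histone H3 had differences of -0.04 (KMT2C), -0.02 (KMT2B) and 0.06 (KMT2D). SETD2, which trimethylates lysine 36, had 0.10, and KMT5A, which methylates lysine 20 of histone H4, -0.23. EZH2, the catalytic subunit of Polycomb complex PRC2, read 7.89 with the inhibitor and 7.80 without it (0.09), and its paralogue EZH1 7.27 with and 6.94 without it (0.33).

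**Figure D3:**
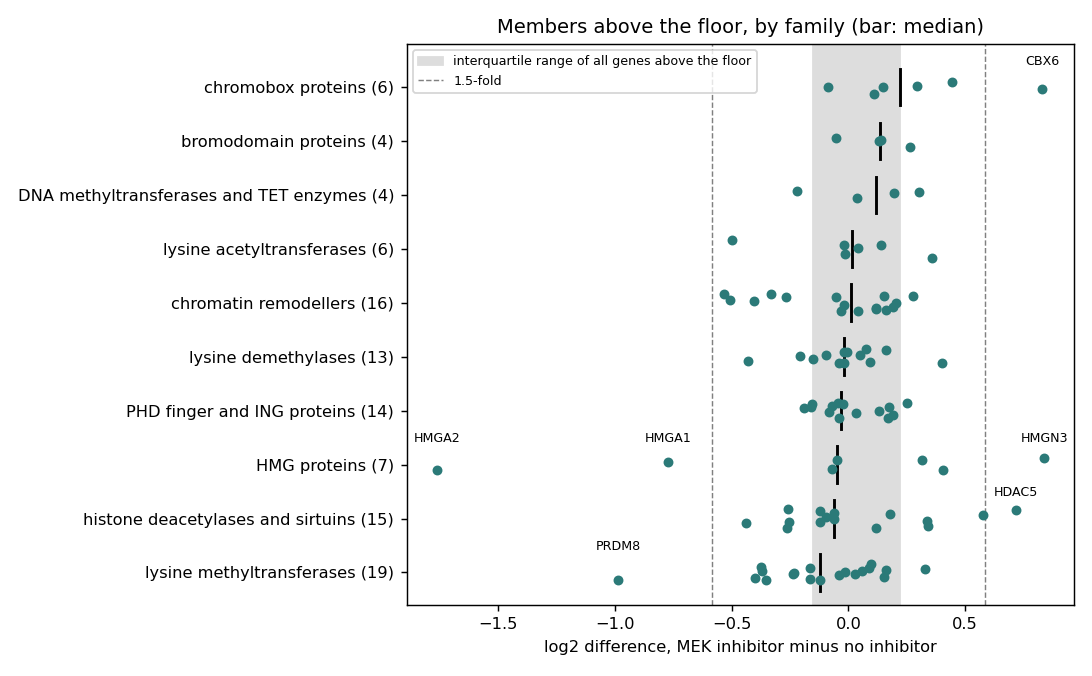
Each point is a member above the floor, placed by its log2 difference, inhibitor minus no inhibitor, in rows by family with the number of genes in brackets; the black bar is the family median, the grey band the interquartile range of all genes above the floor and the dashed lines mark 1.5-fold. Most points lie within the dashed lines, the 6 named members lie outside them, and the HMG proteins run from HMGA2 at -1.76 to HMGN3 at 0.84.

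Lysine demethylases differed little, with a median of -0.02 over 13 measured genes and none past 1.5-fold. The lowest was KDM8 (5.38 with the inhibitor, 5.81 without it, giving a difference of -0.43). KDM4B, which demethylates lysine 9 of histone H3, had the highest difference, 0.40, and was below the floor without the inhibitor (5.01 with and 4.61 without it). KDM1A, the flavin-dependent demethylase of lysine 4, read 8.38 with the inhibitor and 8.53 without it (-0.15). KDM6B, which removes methyl groups from lysine 27, had a difference of -0.21.

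Deacetylases had a median of -0.06 over 15 measured genes, with HDAC5 at the top and HDAC2 at the bottom. The 4 class I enzymes are zinc-dependent, and of them HDAC1, HDAC2 and HDAC3 act in nuclear corepressor complexes. All 4 were lower with the inhibitor by small amounts, with a median of -0.26 and none past 1.5-fold. Of all genes above the floor, 46.1% were lower. HDAC2 read 5.62 with the inhibitor and 6.06 without it (-0.44), and HDAC1 read 8.80 with and 9.06 without it (-0.25). HDAC8 had a difference of -0.26 and HDAC3 one of -0.12. Each is smaller than the 0.80 that 95% of same-gene probe set pairs stay within, and a second, dim HDAC2 probe set gave 0.16.
Among class II enzymes, which shuttle between cytoplasm and nucleus or act in the cytoplasm, HDAC5 read 5.74 with the inhibitor and 5.03 without it, giving a difference of 0.72, or 1.64-fold higher. HDAC10 had a difference of 0.34, HDAC6 of 0.12, HDAC7 of -0.06 and HDAC4 of -0.26, so this class went both ways. HDAC4 was below the floor with the inhibitor (4.58, against 4.85 without it). Genes on either side of HDAC5 had differences between -0.18 (LSM12) and 0.23 (HROB).
Sirtuins depend on NAD. SIRT5, a mitochondrial desuccinylase, read 5.10 with the inhibitor and 4.52 without it (0.58), just short of 1.5-fold and below the floor without the inhibitor. SIRT7, a nucleolar enzyme, had a difference of 0.34, SIRT2 of 0.18, SIRT6 of -0.06, SIRT1 of -0.09 and SIRT3 of -0.12.

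Acetyltransferases had a median of 0.01 over 6 measured genes, with a paralogue pair at its ends. KAT2A (GCN5) read 7.68 with the inhibitor and 8.18 without it, giving a difference of -0.50, and KAT2B (PCAF) read 5.64 with and 5.28 without it, a difference of 0.36. Both are catalytic subunits that occupy the same place in SAGA-type complexes. The other 4, KAT5, KAT6B, KAT7 and KAT8, lay between -0.02 and 0.14. Among bromodomain proteins BRD7, a SWI/SNF subunit, had a difference of 0.26, BRD2 0.14, BRD8 0.13 and BRD3 -0.05. KMT2A was not analysed here.

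Chromatin remodellers are grouped here by ARID or CHD symbols, and not every ARID gene in the group encodes a remodeller. The group had a median of 0.01 over 16 measured genes, 8 higher and 8 lower, and none was past 1.5-fold. No SMARC gene is named in the annotation used here, so the catalytic SWI/SNF subunits were not analysed. The AT-rich interaction domain genes ARID3B (6.53 with the inhibitor, 7.06 without, -0.53), ARID5A (5.42 with, 5.93 without, -0.51) and ARID3A (5.55 with, 5.95 without, -0.40) were the lowest. The 4 SWI/SNF subunits among the members, ARID1A (0.28), BRD7 (0.26), PHF10 (0.19) and ARID1B (0.15), were all slightly higher with the inhibitor. The 6 measured SWI/SNF partners outside the members went both ways, 3 higher and 3 lower, with a median of -0.002. CHD7, a helicase mutated in CHARGE syndrome, had the lowest difference of the CHD genes, -0.33, CHD1 had -0.27 and CHD4, the NuRD helicase, 0.12.

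DNA methyltransferases differed by 0.30 or less. The maintenance enzyme DNMT1 read 8.81 with the inhibitor and 9.03 without it (-0.22), while the de novo enzymes DNMT3A (0.20) and DNMT3B (0.30) were higher. TET2, which oxidises methylcytosine, had a difference of 0.04, and TET1 was below the floor in both arrays. The 14 measured PHD finger genes lay between -0.19 (PHF5A, a splicing factor subunit despite its name) and 0.25 (PHF21A, a reader of unmethylated lysine 4 in the KDM1A corepressor complex), with a median of -0.03. PHF1, a Polycomb-associated reader of lysine 36 methylation with 3 probe sets, gave differences of 0.03, 0.04 and 0.003 in them. The single ING symbol, ING2-DT, is a divergent non-coding transcript and was below the floor.

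Partners of these proteins that do not share the name prefixes were compared in 9 lists with 77 genes above the floor, of which 33 were higher and 44 lower, with a median of -0.03. At 1.5-fold 4 were past the threshold (5.19%, against 8.22% of all genes), 1 higher and 3 lower, and none was past 2-fold, against 1.68% of all genes. Their share is below that of genes at large, and the genes named next are given as values only. WDR5, the scaffold of the KMT2 complexes, read 5.73 with the inhibitor and 6.73 without it, giving a difference of -0.997. HCFC1, a host cell factor of the same complexes, had a difference of -0.60 and the NuRD subunit GATAD2A one of -0.62. TBL1X, a subunit of the NCOR corepressor complex, read 5.36 with the inhibitor and 4.64 without it (0.72), the latter below the floor. Its paralogue TBL1XR1 had -0.34. Of 13 Polycomb partners 8 were lower, from PHC1 at -0.50 to PCGF5 at 0.49, with a median of -0.11. Histone chaperones had a median of -0.10 over 9 genes, of which 7 were lower and none was past 1.5-fold. HJURP, the chaperone of centromeric histone CENP-A, was at -0.55 and the FACT subunit SSRP1 at -0.285. The lists of INO80 and SRCAP subunits (median 0.06), SWI/SNF partners (-0.002) and coactivator acetyltransferases (0.10) stayed within 0.37 of 0 in every gene measured. Other histone methyltransferases had a median of 0.03, with NSD2 at 0.40 and the arginine methyltransferase PRMT1 at -0.52. PRMT1 read 4.30 with the inhibitor, which is below the floor, and 4.82 without it.

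**Figure D4:**
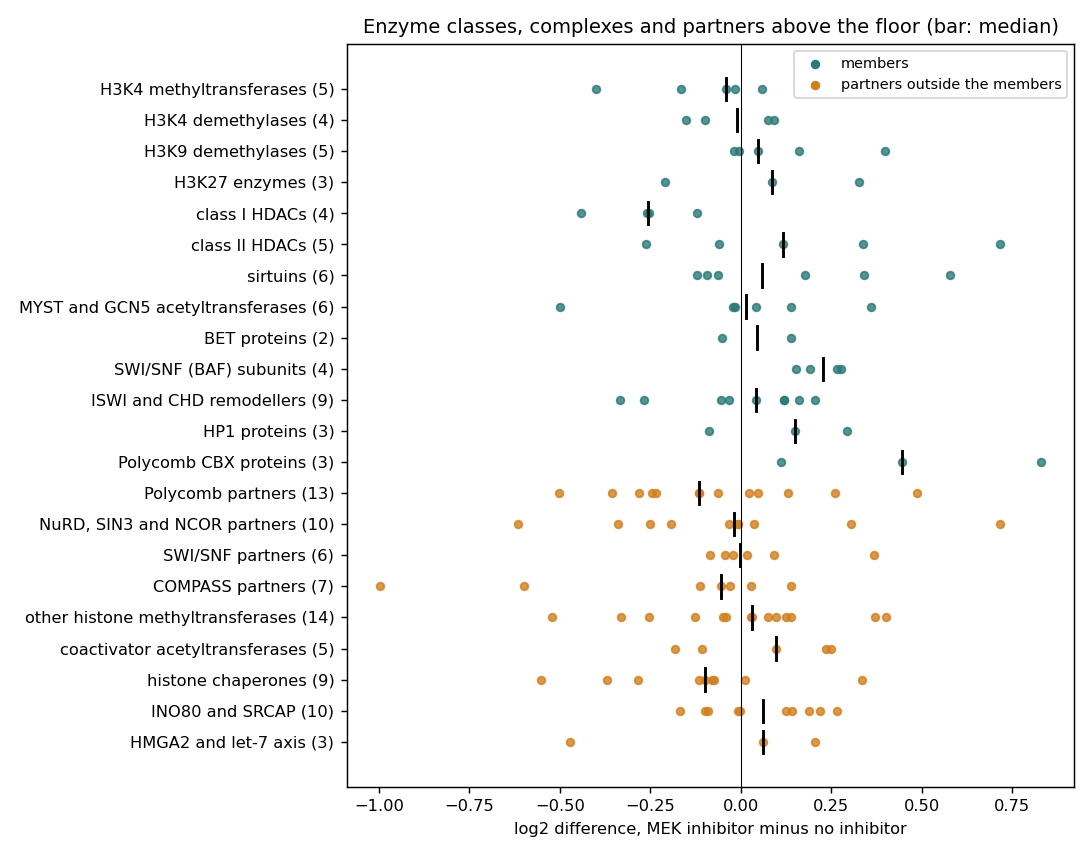
Log2 differences, inhibitor minus no inhibitor, of genes above the floor in enzyme classes and complexes made of members (upper rows) and in lists of their partners (lower rows), with the number of genes in brackets and the median as a black bar. All 4 class I deacetylases lie below 0, and all 3 Polycomb CBX genes and the 4 SWI/SNF members lie above it. The SWI/SNF partners lie on both sides. Of all genes above the floor, 53.9% were higher and 46.1% lower, and these are small lists among many. WDR5 is the lowest partner.

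**Figure D5:**
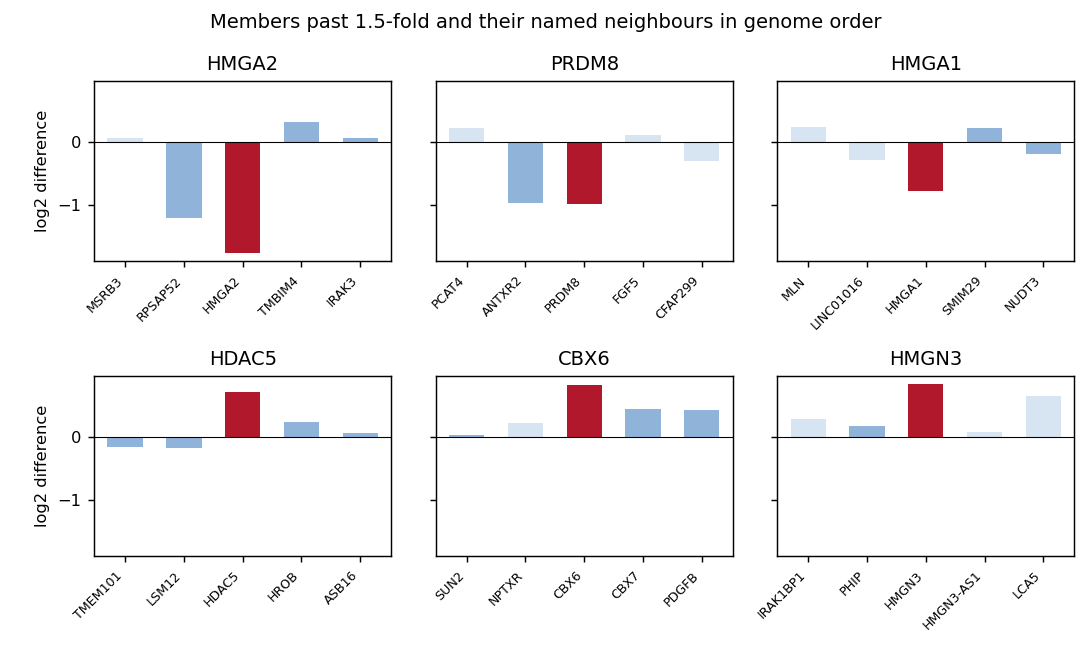
Log2 differences of the 6 members past 1.5-fold (dark) and of the 2 nearest named genes on each side in RefSeq genome order (pale blue, fainter where both arrays were below the floor). RPSAP52 beside HMGA2 and ANTXR2 beside PRDM8 were lower together with the member, and CBX7 and PDGFB were higher together with CBX6.

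Beside HMGA1, SMIM29 had a difference of 0.22 and NUDT3 of -0.18. Beside HMGN3, PHIP had a difference of 0.17, and the other 3 named neighbours were below the floor in both arrays, LCA5 among them with a difference of 0.65. Neighbours were looked at because of their place and not for their values, and no test was made of whether neighbouring genes differ alike more often than others.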

How the data were processed

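Total RNA of 2 S2-013 cultures was measured, 1 array per group, from 100 ng per sample per the labels' protocols. The authors deposited 1 value per probe set and array, read here as log2 because the values run continuously from 1.16 to 13.4. Every fold assumes that scale. Affymetrix Expression Console version 1.3 is named in the submitters' processing notes, and how it was set is not given in the sources used here. Medians were 3.46 on the array with inhibitor and 3.49 on the other, so values were used as deposited. A method that equalises quantiles removes differences in total RNA, and no detection calls were used.

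The platform annotation gave 1 symbol to 16098 of 53617 probe sets, several to 0, and left 37519 unnamed here. Symbols starting with MIR or SCARNA were kept apart. The brightest probe set by its mean stood for each gene, and the floor was 4.78. The 2-fold and 1.5-fold thresholds were counted over 7164 genes and no test was run. Genes are named by rule: HOXB7, HMG genes, members past 1.5-fold, the 3 largest differences of each family or class, enzymes that define a family, and up to 4 genes of each other list. Further members, neighbours and probe sets are named to complete a class or locus. Members follow a rule on symbols alone, but that rule, the lists and the thresholds were chosen with earlier results of these data known. Of the 142 members, 115 matched the RefSeq promoter table. The number of arrays limits the precision. Alternatives were other scalings, filters, probe set averaging and left-out members. The steps were run on simulated data with shifts larger than 2-fold and small added noise. That run checks the computation only and does not measure how reliable the differences are. Computations used Python 3.11.15, numpy 2.4.6, pandas 2.3.3, statsmodels 0.14.6 and matplotlib 3.10.9.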

Additional observations from a re-analysis of the deposited data

How the results depend on the processing

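No paired analysis was possible because there was 1 array per condition, which also means that none could be left out. With the median difference or a loess trend subtracted there were 2 members past 2-fold in place of 1, since PRDM8 crossed the threshold, and a 3-fold threshold kept 1, HMGA2. Requiring both arrays to reach the floor, an alternative chosen after seeing the data, left 0 members past 2-fold, because HMGA2 read just below the floor with the inhibitor. The 75th percentile filter (6.45) left 3 of 61 members past 1.5-fold, and over all genes 76 past 2-fold and 300 past 1.5-fold of 3677. Under that filter the median of the HMG proteins was -0.41 over 4 genes and that of the lysine methyltransferases 0.058 over 11 genes, the opposite sign to the -0.12 over 19. That median was -0.049 without the filter and -0.028 with both arrays at or above the floor, so the order of the families by median is not stable and is not reported. The HMG median was 0.13 without HMGA2, by either the both-arrays filter or leaving out the largest member. It lies between genes that differ in opposite directions and describes none of them. CBX6 was 0.50 as the mean of its probe sets. Averaging probe sets took HDAC2 below the floor and left 13 measured deacetylases in place of 15, so its move in that setting was not compared. The other medians, and single genes in the settings where they stayed measured, moved by less than the 0.16 by which same-gene probe sets typically disagree. Dim signals limit HMGA2 and PRDM8, whose values with the inhibitor lay below the floor.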
